A study of Arabidopsis thaliana with 24 samples.

Results

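Short H3K9ac peaks were taken as the entries of the deposited peak table whose end lay no more than 250 bp from their start, a rule that uses peak length and no signal value. There were 809 such entries out of 19435 (4.16%). They stood for 794 separate intervals and 776 of the 17672 genes with a peak, and they covered 0.853% of the peak bases. Their length ran from 101 to 250 bp with a median of 186 bp. They were set beside the 12591 peaks of 500 to 1500 bp, called longer peaks here. H3K9ac had been profiled by ChIP-sequencing in 2-day-old Arabidopsis thaliana Col-0 seedlings, whole and therefore of mixed cell types. Wild type (wt) and the pifq mutant, which lacks PIF1, PIF3, PIF4 and PIF5, were each kept in true darkness (D), kept for 47 h in darkness and then given 1 h of red light at 10 µE (R1h), or grown in continuous white light at 100 µE (WLc). Each of the 6 groups had 3 H3K9ac libraries, and the table gives 1 value per peak and group, pooled by the authors. No spread between replicates can therefore be had, no test was made and no SD, n or p accompanies any value, so each difference below is a description of the pooled values. Depth is unknown.

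Acetylation of lysine 9 of histone H3 marks the chromatin of transcribed genes, and in plants it lies mostly just downstream of the transcription start site (TSS). The PIFs are basic helix-loop-helix factors that build up in darkness, bind G-boxes (CACGTG) and related elements, and are degraded once phytochrome is activated by red light. Seedlings without the PIF quartet take on part of the form of light-grown seedlings in darkness. A peak is a stretch in which the caller found enrichment, so a short one is a small stretch of enriched chromatin, either by itself or beside a longer one. In whole seedlings, fewer cells that carry the mark and less of it per cell cannot be told apart.

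The sequences of 6 short peaks within coding sequence are printed here, 5′ to 3′ on the strand of their gene, read from TAIR10.1 with G-boxes in capitals. The first 4 are from genes with large differences between darkness and light: ACS8 (AT4G37770, chr4:17753295-17753469, plus strand, exon 4 of 4), a 1-aminocyclopropane-1-carboxylate synthase of ethylene synthesis, FLP1 (AT4G31380, chr4:15230045-15230219, plus strand, in a gene of 1 exon), a flowering-promoting factor-like gene, TBL15 (AT2G37720, chr2:15820899-15821046, plus strand, exon 3 of 3), of the TRICHOME BIREFRINGENCE-LIKE family, and MYB12 (AT2G47460, chr2:19478896-19479000, plus strand, exon 3 of 3), a transcription factor that activates flavonol synthesis. None of the 4 holds a G-box. AT2G46900, AT4G22460 and AT2G36970, described below, also differ between darkness and light, hold 1 G-box each and are not printed.
ACS8: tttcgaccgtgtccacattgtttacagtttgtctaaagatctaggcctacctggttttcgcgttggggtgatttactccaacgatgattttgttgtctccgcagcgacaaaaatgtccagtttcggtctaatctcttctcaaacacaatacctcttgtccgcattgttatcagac
FLP1: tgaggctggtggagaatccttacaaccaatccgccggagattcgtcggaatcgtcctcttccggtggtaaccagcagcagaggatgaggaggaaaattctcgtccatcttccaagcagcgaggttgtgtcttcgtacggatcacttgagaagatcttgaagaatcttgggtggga
TBL15: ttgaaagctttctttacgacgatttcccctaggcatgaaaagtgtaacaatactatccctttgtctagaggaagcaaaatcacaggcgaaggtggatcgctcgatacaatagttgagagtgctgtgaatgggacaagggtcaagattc
MYB12: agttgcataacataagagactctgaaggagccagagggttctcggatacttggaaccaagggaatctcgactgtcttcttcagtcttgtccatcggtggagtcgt
ABI4 and AT3G53690 are shown because they hold G-boxes inside coding exons. ABI4 (AT2G40220, chr2:16797200-16797350, minus strand, in a gene of 1 exon), an AP2-type transcription factor of abscisic acid signalling, has 2 of them, at positions 37 and 76 from the 5′ end. AT3G53690 (chr3:19899850-19899950, minus strand, exon 1 of 2), a RING/U-box protein gene, has 1 at position 13 and is the short peak with the highest mean signal over the 6 groups.
ABI4: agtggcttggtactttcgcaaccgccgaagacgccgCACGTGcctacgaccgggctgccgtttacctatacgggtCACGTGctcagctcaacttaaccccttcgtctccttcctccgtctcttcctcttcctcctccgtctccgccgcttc
AT3G53690: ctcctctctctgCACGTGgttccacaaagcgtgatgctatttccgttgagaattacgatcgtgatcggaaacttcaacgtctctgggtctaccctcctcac

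Of the 794 short intervals, 21 (2.64%) held a G-box. Among central windows of 186 bp cut from the longer peaks the share was 1.89% (219 of 11580). The PIF binding element CACATG, read on both strands, was found in 5.67% of short intervals and 4.31% of the central windows, TATAAA in 10.7% and 11.7%, GAGAGA in 26.1% and 25.8%, and the telo box AAACCCTA in 4.91% and 7.71%. The short intervals were thus close to the centres of longer peaks in most of these letters, with fewer telo boxes. Their GC content was higher, with a median of 43.5% against 40.3% in the central windows and 39.2% over the whole longer peaks. Within coding exons the medians were 45.9% and 45.2%, and within introns 35.9% and 34.9%, so the difference was smaller within a feature than over all peaks.

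Short peaks lay further into their assigned gene than longer peaks. Of the 804 entries whose gene is in the TAIR10.1 annotation, 467 (58.1%) had their centre 0 to 1000 bp downstream of the TSS of the assigned gene, against 85.2% of the longer peaks. A further 328 (40.8%) lay more than 1000 bp downstream but still within the gene, where 6.72% of the longer peaks lay. Only 2 lay upstream of the TSS and 7 beyond the end of the gene. The median distance from the TSS was 598.75 bp against 448.5 bp, and the upper quartile was 1758.5 bp against 617 bp. From the nearest TSS of any gene, with upstream distances negative, the medians were 359 and 413 bp, so their order turned. Peaks upstream of that TSS lower such a median, so the turn does not show that short peaks lay closer to a TSS. The upper quartiles were then 943 and 551.5 bp. The genes themselves were of like length, with medians of 2478.5 and 2479 bp.

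**Figure D1:**
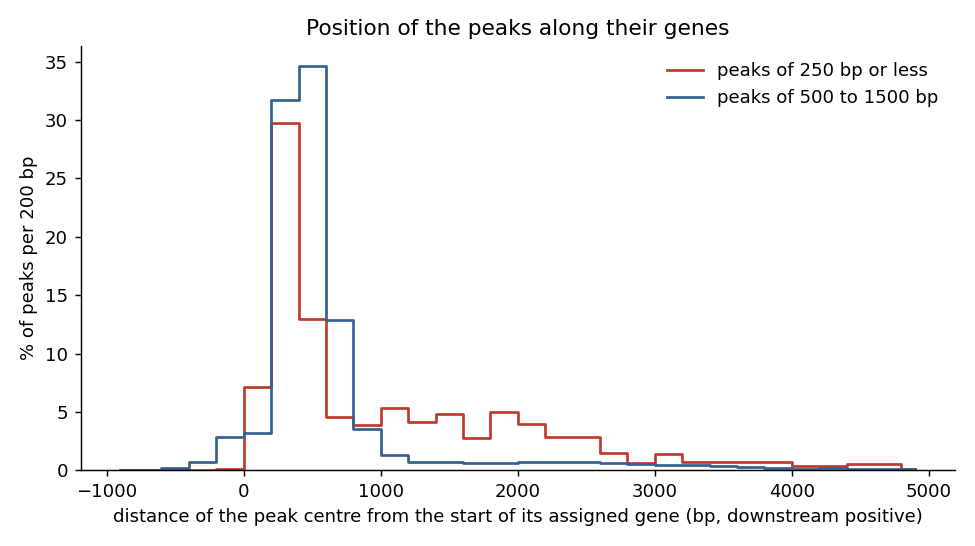
Share of peaks (%, in steps of 200 bp) against the distance of the peak centre from the start of the assigned gene (bp), for peaks of 250 bp or less and peaks of 500 to 1500 bp. Both have their highest steps within the first 600 bp, and the short peaks have a tail beyond 1000 bp that holds 40.8% of them within the gene against 6.72%.

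The centre of 557 short peaks (69.3%) fell in a coding exon, against 49.5% of longer peaks. Introns held 164 (20.4%, against 33.0%), 5′ UTRs 31 (3.86%, against 7.12%) and 3′ UTRs 34 (4.23%, against 1.396%). Nearly all short peaks belonged to protein-coding genes (789 of 804). The nearest annotated TSS was that of another gene for 195 short peaks (24.1%). Of these, 158 lay more than 1000 bp into their own gene and 136 lay upstream of that other TSS. The name of a gene beside a short peak is therefore less sure than for a longer peak, whose assigned gene had the nearest TSS in 85.4% of cases. Among the short peaks named below, those of RWA3, TBL15, AT2G37730, MYB12, SOFL2, IQD24 and PG1 were nearest to the TSS of another gene. So were those of HAF01, AT1G14600, AT4G22460, AT4G23420, AT4G35240, ECT5, AT2G46900, AT5G61530 and AT3G02390. Of all short entries, 30 shared their interval with another gene, some of them among those 195. There were 32 genes with more than 1 short peak, at most 3.

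The signal of short peaks was lower than that of longer peaks in every group. The deposited value is a signal per bp of peak. Its median over short peaks was 0.509 in wt D, 0.541 in wt R1h, 0.536 in wt WLc, 0.498 in pifq D, 0.516 in pifq R1h and 0.603 in pifq WLc. The corresponding medians of the longer peaks were 0.740, 0.733, 0.746, 0.737, 0.739 and 0.742. The ratio of the medians was lowest in pifq D at 0.675 and highest in pifq WLc at 0.812. Summed over its length, a short peak carried far less signal: the median of signal times length was between 86.7 and 104.9 in the 6 groups, against 619.6 to 624.9 for longer peaks. The part of this lower total in the differences given below was not tested.

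**Figure D2:**
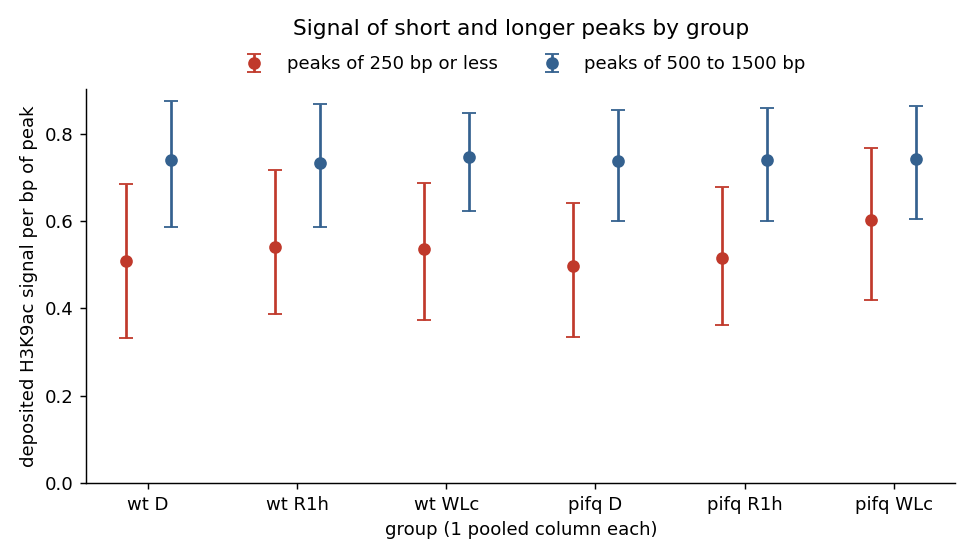
Deposited H3K9ac signal per bp of peak in the 6 groups. Points are medians over 809 short and 12591 longer peaks, and bars run from the lower to the upper quartile over peaks, not over replicates. Short peaks are lower in each group and come nearest to the longer peaks in pifq WLc (0.603 against 0.742).

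The group that was most often highest differed between the classes. It was pifq WLc for short peaks, the highest of the 6 groups in 242 of them (29.9%, against 16.7% of longer peaks), and wt D for longer peaks (26.0%, against 18.3% of short peaks). The group most often lowest was wt D in both, in 269 short peaks (33.3%) and in 24.6% of longer peaks. Signal times length has a fixed lowest value in each column (0.889 to 1.17), called the floor here. A short peak was at this floor 18 times in wt D and 1 to 4 times in each other group. In all, 786 short peaks were at the floor in no group and 21 in 1 group. MYB12 was at the floor in 3 groups and AT2G08986, whose gene has 6 peaks, in all 6. The AT2G08986 interval (chr2:3617994-3618200) is thus listed as a peak with no signal above the floor.

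Over the 6 groups, the distance between the highest and the lowest value had a median of 0.92 (log2, after a pseudocount of 0.0717) for short peaks and 0.26 for longer peaks. It reached 2-fold or more in 358 short peaks (44.3%) and in 6.97% of longer peaks. It stayed under 1.5-fold in 189 short peaks (23.4%) and in 83.0% of longer peaks. The profiles of the groups over the short peaks were also less alike. Between wt D and wt WLc, the Pearson correlation of log2 signals was 0.15 over the 809 short peaks and 0.56 over the 12591 longer ones. Between wt WLc and pifq WLc it was 0.81 and 0.94. These were the lowest and the highest r of all pairs of groups in both classes, while the order of the pairs between them was not the same. Between wt D and wt R1h, for example, r was 0.75 in short and 0.86 in longer peaks, and between pifq R1h and pifq WLc it was 0.74 and 0.94. These r describe peaks of the same pooled columns, which differ in level along the genome, and are no measure over replicates.

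For each pair of groups, a peak was counted as higher or lower if the signals plus the pseudocount were at least 1.5-fold apart. After 1 h of red light in wt, 153 short peaks (18.9%) were higher than in wt D and 33 (4.08%) were lower. Over all 19435 entries the shares were 4.37% higher and 0.859% lower, and over longer peaks 3.097% and 0.635%. The median log2 difference of short peaks was 0.12, and 0.04 after quantile normalization. When the columns were quantile normalized, 97 were higher and 55 lower, so the lean towards higher values was smaller under that scaling (63.8% of those beyond the limit were higher, against 82.3%). Short peaks, 4.16% of the entries, made up 18.3% of all entries beyond the limit.

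In wt WLc against wt D, 202 short peaks (25.0%) were higher and 169 (20.9%) lower, against 8.56% and 6.91% of all entries and 6.62% and 5.20% of longer peaks. After quantile normalization the balance turned, with 159 higher and 187 lower. In pifq D against wt D, 161 (19.9%) were higher and 141 (17.4%) lower, against 5.67% and 4.9% of all entries, and quantile normalization again turned the balance (123 and 150), as did a length limit of 200 bp (95 and 103). These 3 comparisons share the wt D column.

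Within pifq fewer short peaks were higher after red light than within wt, and no fewer were lower. In pifq R1h against pifq D, 62 short peaks (7.66%) were higher and 42 (5.19%) lower, against 1.8% and 0.628% of all entries. Of the short peaks of 200 bp or less, 31 were higher and 32 lower. The median log2 difference was 0.05, and 0.04 after quantile normalization, where it was the same in wt to this precision. In pifq WLc against pifq D, 173 (21.4%) were higher and 40 (4.94%) lower, against 3.76% and 1.28%. The median log2 difference of short peaks in that comparison was 0.21, and that of longer peaks was 0.01. Both comparisons share the pifq D column.

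A further comparison, pifq WLc against wt WLc, was added after the values had been seen, because pifq WLc was so often the highest group. Here 95 short peaks (11.7%) were higher and 23 (2.84%) lower, against 1.25% and 0.334% of all entries and 0.389% and 0.151% of longer peaks. Short peaks made up 38.4% of all entries beyond the limit, the largest share of the 6 comparisons. The median log2 difference was 0.14 for short peaks, and it was 0.14 and 0.13 after scaling to equal medians and after quantile normalization.

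**Figure D3:**
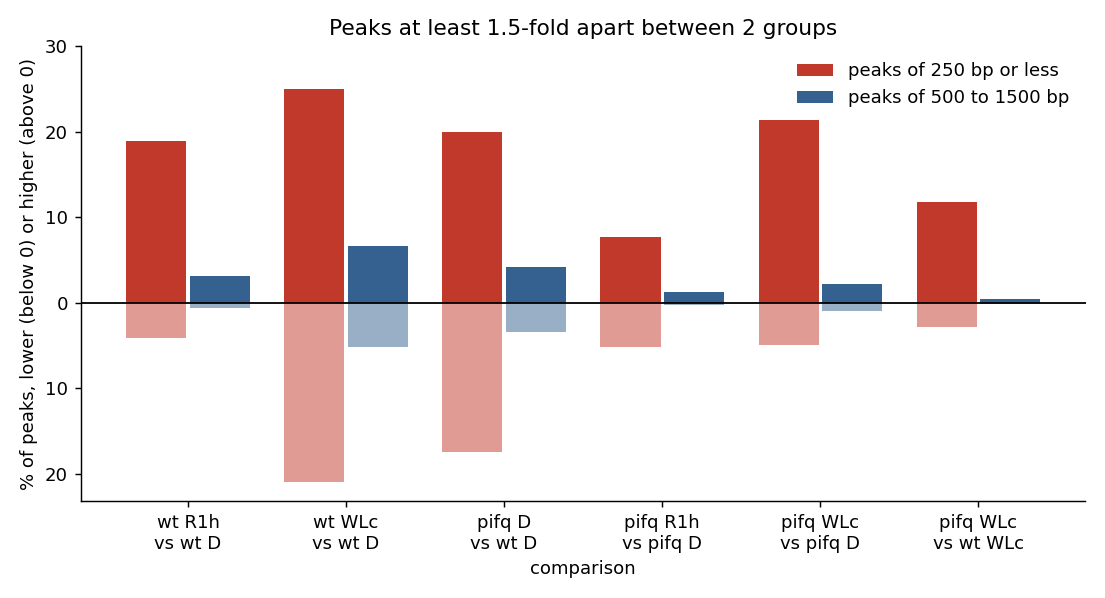
Share of peaks (%) at least 1.5-fold higher (bars above 0) or lower (paler bars below 0) in each of 6 comparisons, for short and longer peaks. The short peaks have the larger share in both directions throughout, from 25.0% higher in wt WLc against wt D to 2.84% lower in pifq WLc against wt WLc.

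The larger shares were also present among peaks of like signal. Of the 809 short peaks, 470 fell in the lowest quartile of mean signal over all entries, 204, 94 and 41 in the next ones. In the lowest quartile, 22.6% of short and 10.4% of longer peaks were higher in wt R1h than in wt D, and in the second quartile 16.7% and 2.79%. For pifq WLc against pifq D, 26.0% of short and 8.54% of longer peaks were higher in the lowest quartile, and 20.1% and 1.46% in the second. The median log2 difference between pifq WLc and wt WLc lay between 0.11 and 0.18 for short peaks in the 4 quartiles and between -0.05 and 0.05 for longer peaks. The quartiles match signal per bp, not signal times length, which remained lower in the short peaks. Shares were lower just outside the limit of 250 bp than just inside it, and lower again at greater length. For wt R1h against wt D, 20.4% of peaks of 101 to 150 bp were higher, and 18.7% of those of 151 to 200 bp. At 301 to 499 bp it was 7.99%. Just inside the limit (201 to 250 bp, 337 peaks) 18.7% were higher in wt R1h, and just outside it (251 to 300 bp, 422 peaks) 13.3%. For pifq WLc against pifq D these shares were 19.6% and 15.6%, and the genes had another peak in 46.6% and 36.5% of cases.

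Many short peaks lay beside another peak of their gene. This was so for 405 of the 809 (50.1%), against 14.5% of longer peaks. The gap to the nearest other peak of the gene had a median of 225 bp, against 1061 bp, and 198 of the 405 gaps were no more than 200 bp. The other peak was the longer in 374 cases, with a median length of 775 bp. The short peak lay 3′ of it, with respect to the gene, in 291 of the 402 with an annotated gene (72.4%, against 43.3% for longer peaks), and it had the lower mean signal in 273 cases (67.4%). Short peaks with another peak lay at a median of 1536 bp from the TSS, and those that were the only peak of their gene at 358.5 bp. Of the short peaks more than 1000 bp into the gene, 83.8% had another peak, and of those within the first 1000 bp, 25.9%.

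The differences between groups were found in both kinds. In wt WLc against wt D, 26.2% of short peaks with another peak were higher and 21.5% lower, and of the 404 that stood alone 23.8% were higher and 20.3% lower. In pifq WLc against wt WLc the median log2 difference was 0.08 with another peak and 0.19 alone.

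Where there was another peak, it mostly differed in the same direction and by less. In wt WLc against wt D, 193 of the 405 short peaks were beyond the limit, and 162 of these had the same sign as the other peak, although only 80 of the other peaks were themselves beyond it in that direction and 1 was beyond it in the opposite one. Pearson's r of the 2 log2 differences was 0.70 over the 405 pairs, 0.83 for the 198 pairs with a gap of 200 bp or less and 0.54 for the 207 pairs further apart. In wt R1h against wt D these r were 0.54, 0.67 and 0.39, and in pifq D against wt D 0.62, 0.76 and 0.45. The other comparisons had lower r over the 405 pairs. The 3 values were 0.40, 0.45 and 0.38 in pifq R1h against pifq D and 0.49, 0.66 and 0.33 in pifq WLc against pifq D. They were 0.34, 0.48 and 0.21 in pifq WLc against wt WLc. With gaps over 200 bp, the sign was shared by 38 of 61 short peaks beyond the limit in pifq WLc against pifq D. In pifq WLc against wt WLc it was shared by 21 of 35. Neighbouring peaks come from the same libraries, and fragments at their border can count for either. The limit of 200 bp was set after the values were seen.

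**Figure D4:**
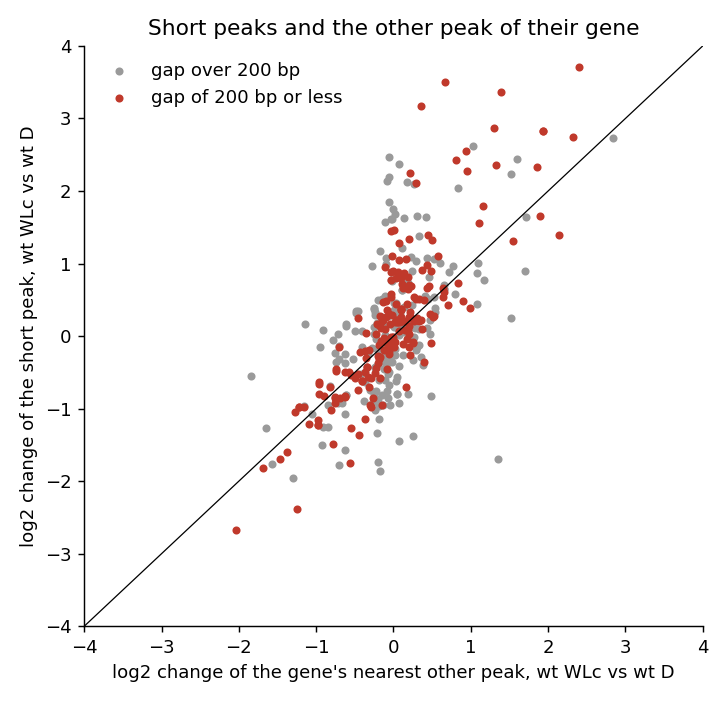
Log2 difference between wt WLc and wt D in 405 short peaks (vertical) against that of the nearest other peak of the same gene (horizontal), with the line of equal values. Points with a gap of 200 bp or less have the higher correlation (r = 0.83, 198 pairs, against r = 0.54 in the 207 others).

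The largest differences given below are among short peaks whose higher group reached 0.531, the median of all short-peak values, so that larger ratios between low values are left aside. Among the short peaks higher in the light, the 201 bp interval in the 3′ UTR of ECT5 (AT3G13060), a gene of the m6A-reading ECT family, had the largest difference after 1 h of red light. Its signal was 0.0462 in wt D, 0.630 in wt R1h, 0.768 in wt WLc, 0.279 in pifq D, 0.881 in pifq R1h and 0.902 in pifq WLc. It was low in darkness in both genotypes, lowest in wt. The log2 difference was 2.57 in wt and 1.44 in pifq after red light. The interval (chr3:4183350-4183550) is also entered for the non-coding gene AT3G13061, whose TSS is the nearer, 434 bp away. A peak of 251 bp at a gap of 149 bp differed the same way, by 1.06 in wt R1h.

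Other short peaks were higher after red light while another peak of their gene differed little. In an intron of AT4G35240 (chr4:16761359-16761522), 5646.5 bp from the TSS, the signal was 0.0738 in wt D, 0.550 in wt R1h, 0.569 in wt WLc, 0.259 in pifq D, 0.860 in pifq R1h and 0.818 in pifq WLc. The 2103 bp peak of the same gene lay between 0.967 and 1.05 in all groups. In AT2G46900 (chr2:19271796-19272000, coding exon), named as transcription factor-like in the annotation, a coding-exon interval 2340 bp from the TSS went from 0.111 in wt D to 0.630 in wt R1h and 0.880 in wt WLc, with 0.399, 0.622 and 0.994 in pifq D, R1h and WLc. Its 751 bp peak stayed between 0.930 and 0.979. For AT2G46900 the nearest TSS was that of AT2G46910, 383 bp away, so the short peak lay just upstream of another gene. The short peak of AT5G61530 (chr5:24744416-24744524, coding exon), a RhoGAP family gene, likewise lay 383 bp upstream of the TSS of AT5G61540. It went from 0.144 in wt D to 0.710 in wt R1h and 0.728 in pifq D. Here the nearest other peak, of 1025 bp, adjoined it on the 3′ side at a gap of 2 bp. That peak lay between 0.603 and 0.753. The gene has 3 peaks in all, and the remaining peak is not described here.

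AT1G52990 (chr1:19743166-19743366, intron), a thioredoxin family gene, stood apart in that its short peak was high in wt R1h alone. Its signal was 0.534 there and between 0.0386 and 0.128 in the other groups. The 451 bp peak next to it behaved alike, with 0.545 in wt R1h and 0.0959 to 0.186 elsewhere. MYB112 (AT1G48000, chr1:17704351-17704516, coding exon), a MYB transcription factor, had 0.304 in wt R1h and no more than 0.0780 in any other group.

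Several short peaks were at or near the floor in wt D and high in wt WLc. TBL15, whose family acts in cell wall polysaccharide acetylation, lay at the floor in wt D, reached 0.0863 in wt R1h and 0.964 in wt WLc, and stood at 0.240, 0.538 and 0.962 in pifq D, R1h and WLc. Its 902 bp peak at a gap of 148 bp differed alike, with 0.0716 in wt D and 0.687 in wt WLc. Next to TBL15 on the chromosome, AT2G37730 (chr2:15822846-15822950, coding exon), a glycosyltransferase gene, had 0.0953, 0.0970 and 0.887 in wt and 0.190, 0.735 and 1.19 in pifq, in the order D, R1h and WLc. Both intervals were thus high after 1 h of red light in pifq and not in wt. The nearest TSS to both was that of the non-coding gene AT2G08885. The TBL15 interval lay 1026.5 bp downstream of it and the AT2G37730 interval 899 bp upstream. RWA3 (AT2G34410, chr2:14522099-14522299, intron), which acts in the acetylation of wall polymers, lay at the floor in dark wt, then 0.157 in wt R1h and 0.724 in wt WLc, and already 0.529 in pifq D. This interval lay 3855 bp from the TSS of RWA3 and 323 bp upstream of that of the non-coding gene AT2G08665, the nearest. The 1152 bp peak of RWA3 at a gap of 49 bp differed alike, with 0.284 in wt D and 0.859 in wt WLc. XTH6 (AT5G65730, chr5:26299648-26299807, coding exon), a xyloglucan endotransglucosylase/hydrolase of the cell wall, started from the floor in dark wt, with 0.0993 in wt R1h and 0.856 in wt WLc, and gave 0.320, 0.192 and 0.581 in pifq D, R1h and WLc. AT3G50560, AT3G04210 and SOFL2 (AT1G68870, chr1:25889247-25889469, coding exon) completed the 6 largest, with wt WLc values of 0.825, 0.768 and 0.714 and the floor in wt D.

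MYB12 was high in white light alone. It lay at the floor in wt D, pifq D and pifq R1h, with 0.121 in wt R1h, 0.717 in wt WLc and 1.101 in pifq WLc. The short peak is the only peak of the gene and lies in its last exon, 2622 bp from the TSS. The nearest TSS was that of UNE5, 2306 bp away. AT2G36970 (chr2:15529200-15529396, coding exon), a UDP-glycosyltransferase gene with a G-box in its interval, lay at the floor in dark wt, with 0.262 in wt R1h, 0.617 in wt WLc, 0.0869 in pifq D, 0.356 in pifq R1h and 0.891 in pifq WLc. It was thus higher in the light in both genotypes.

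In pifq darkness some short peaks were already much higher than in dark wt, at or somewhat below the level of light-grown wt. IQD24 (AT5G07240, chr5:2273426-2273551, coding exon), of the IQ-domain calmodulin-binding family, had 0.131 in wt D, 0.455 in wt R1h, 0.946 in wt WLc and 0.952, 0.791 and 1.00 in pifq D, R1h and WLc. Its 351 bp peak at a gap of 27 bp differed alike, with 0.133 in wt D, 0.673 in wt WLc and 0.530 in pifq D. ASN2 (AT5G65010, chr5:25970026-25970141, coding exon), an asparagine synthetase, had 0.0982, 0.225 and 0.921 in wt and 0.734, 0.594 and 0.790 in pifq. Its 701 bp peak at a gap of 168 bp differed the same way by less, with 0.392 in wt D, 0.821 in wt WLc and 0.691 in pifq D. AT3G02390 (chr3:489050-489204, intron) went from 0.0547 in dark wt to 0.742 in dark pifq, with 0.722 in wt WLc. Its nearest TSS was that of COL2, a CONSTANS-LIKE gene, 340 bp away. In these 3 genes wt D was the lowest group and wt R1h the next, and the 3 pifq values were all above both.

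**Figure D5:**
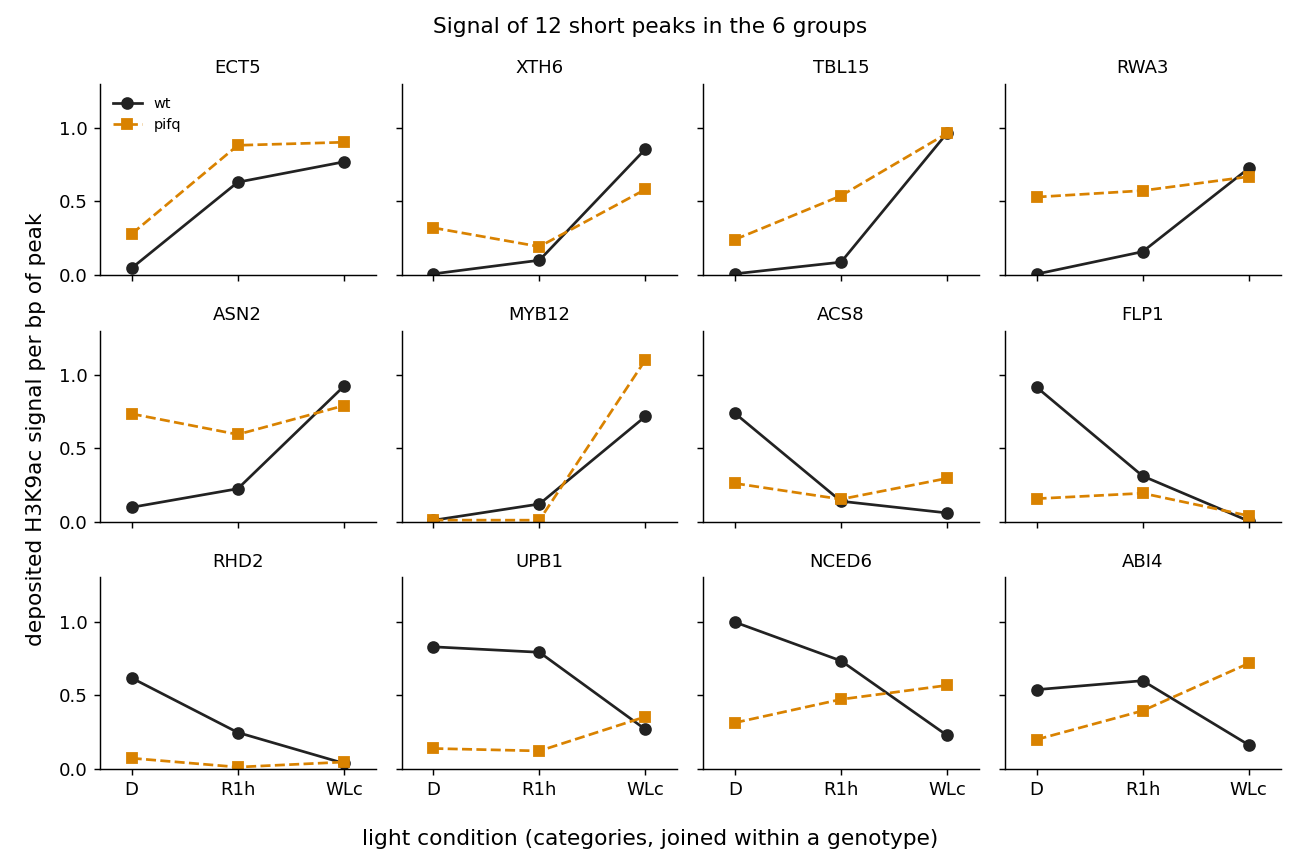
Deposited H3K9ac signal per bp of peak in D, R1h and WLc for 12 short peaks, wt with solid lines and pifq with dashed lines. Each point is 1 pooled value without an error, and lines only join the groups of a genotype. ECT5 to MYB12 are at their lowest or at the floor in wt D, ACS8 to NCED6 are highest in wt D, and ABI4 is highest in pifq WLc.

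Among the short peaks lower in the light, ACS8 had 0.737 in wt D, 0.140 in wt R1h, 0.0600 in wt WLc, 0.261 in pifq D, 0.153 in pifq R1h and 0.295 in pifq WLc. It was thus far higher in wt D than in any other group. Its log2 difference from wt D was -1.94 in wt R1h and -1.28 in pifq D, and the short peak is the only one of the gene. FLP1, also with a single peak, had 0.915 in wt D, 0.311 in wt R1h, the floor in wt WLc and 0.157, 0.194 and 0.0408 in pifq D, R1h and WLc.

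RHD2 (AT5G51060, chr5:20761364-20761535, coding exon), an NADPH oxidase that acts in root hair growth, had 0.616 in wt D, 0.246 in wt R1h, 0.0364 in wt WLc, 0.0710 in pifq D, 0.0107 in pifq R1h and 0.0451 in pifq WLc. The 463 bp peak on its 5′ side differed alike, with 0.814 in wt D, 0.144 in wt WLc and 0.206 in pifq D. UPB1 (AT2G47270, chr2:19411744-19411900, coding exon), a basic helix-loop-helix factor of the root, had 0.828 and 0.791 in wt D and R1h, 0.266 in wt WLc and 0.137, 0.121 and 0.353 in pifq. Its signal in wt was therefore nearly as high after 1 h of red light as in darkness. SBP3 (AT3G23800, chr3:8582400-8582500, coding exon), a selenium-binding protein gene, had 0.992, 0.574 and 0.0931 in wt and 0.140, 0.0727 and 0.118 in pifq. AT3G54510 (chr3:20181350-20181500, coding exon), an early-responsive-to-dehydration family gene, had 0.807, 0.313 and 0.0967 in wt and 0.0603, 0.0216 and 0.0331 in pifq. The 1001 bp peak on its 5′ side differed the same way by less, with 1.14 in wt D, 0.439 in wt WLc and 0.545 in pifq D. AT4G22460 (chr4:11839127-11839295, coding exon), of the lipid-transfer protein family, had 0.620 in wt D, 0.477 in wt R1h, the floor in wt WLc and no more than 0.0497 in pifq. All of these short peaks had their highest value in wt D. The nearest TSS to the AT4G22460 interval was that of AT4G22463, 214 bp away.

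After red light, KAT1 (AT5G46240, chr5:18746391-18746607, coding exon), a potassium channel of guard cells, went from 0.574 in wt D to 0.262 in wt R1h but 0.482 in wt WLc. AT1G14600 (chr1:5001302-5001466, coding exon), a homeodomain-like gene, was lower after red light in both genotypes (0.712 and 0.352 in wt, 0.534 and 0.294 in pifq).

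Cytochromes P450 were more frequent among the genes of short peaks than among those of longer peaks (15 genes, 1.95%, against 0.633%), a class looked up after the members had been seen. Of their 17 short peaks, 8 (47.1%) were lower in wt WLc than in wt D and none was higher, against 20.9% and 25.0% of all short peaks and 6.91% and 8.56% of all entries. By comparison 41.2% of the 80 longer peaks of this class were beyond the limit in either direction, 13 higher and 20 lower. CYP705A5 (AT5G47990), which acts in the thalianol pathway of the root, had all 3 of its peaks in the short class. Their signals in wt D, R1h and WLc were 0.524, 0.771 and 0.232 for the peak nearest the TSS, 0.797, 0.944 and 0.319 for the next, and 0.344, 0.755 and 0.141 for the last. In pifq D they were 0.390, 0.738 and 0.366, and in pifq WLc 0.243, 0.423 and 0.225. All 3 were lower in WLc than in D in both genotypes. CYP708A2 (AT5G48000, chr5:19446791-19446977, coding exon), the neighbouring gene of the same pathway, had 0.448, 0.600 and 0.218 in wt and 0.588, 0.541 and 0.179 in pifq. CYP81F3 (AT4G37400, chr4:17585859-17585977, coding exon) and CYP81F4 (AT4G37410, chr4:17590877-17591116, coding exon), of the subfamily that modifies indole glucosinolates, had 1.42 and 0.433 in wt D against 0.550 and 0.241 in wt WLc. Members of a P450 subfamily are alike in sequence, and reads that fit several of them cannot be placed with certainty.

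In white light, among short peaks that reached 0.531 in the higher group, those by which pifq most exceeded wt lay in 2 genes of abscisic acid. Among those that did not reach it, ACS8 and others had larger log2 differences than the second of these genes (1.48 in ACS8), with ABI4 the highest of all short peaks at 1.76. ABI4 had 0.537 in wt D, 0.598 in wt R1h, 0.162 in wt WLc, 0.198 in pifq D, 0.394 in pifq R1h and 0.716 in pifq WLc. The order of D and WLc was therefore opposite in the 2 genotypes. NCED6 (AT3G24220, chr3:8761950-8762100, coding exon), a 9-cis-epoxycarotenoid dioxygenase of abscisic acid synthesis, had 0.996, 0.733 and 0.226 in wt and 0.312, 0.471 and 0.567 in pifq, again in opposite order. Whether such opposite orders exceed the spread between replicates was not tested. PG1 (AT1G60390, chr1:22247905-22248126, coding exon), a polygalacturonase gene, was next above that level with 0.357 in wt WLc and 0.776 in pifq WLc. BGLU46 (AT1G61820, chr1:22836797-22836920, intron), a beta-glucosidase gene, was the most different the other way above that level (0.541 and 0.292).

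The short peaks with the highest mean signal differed little between groups, apart from 3 of the 8. AT3G53690 lay between 0.774 and 1.29, AT4G30910 between 1.01 and 1.19, AT1G77570 between 0.823 and 1.06, AT2G45245 between 0.885 and 1.07, AO (AT5G14760, chr5:4768723-4768824, intron), the L-aspartate oxidase of NAD synthesis, between 0.736 and 1.05, and AT3G09040 between 0.787 and 1.07. CYP81F3 (1.42 in wt D and 0.550 in wt WLc) and AT4G23420 (1.15 and 0.634) were lower in white light, and AT3G53690 was higher in pifq WLc than in pifq D by 0.67 (log2). Of the 15 entries with the shortest length, 101 bp, UBA1 (AT2G30110, chr2:12856900-12857000, intron), a ubiquitin-activating enzyme, lay between 0.590 and 0.888 and OEP37 (AT2G43950, chr2:18202050-18202150, intron), a chloroplast envelope protein, between 0.704 and 0.981. BRL3 (AT3G13380, chr3:4346750-4346850, 5′ UTR), a brassinosteroid receptor homologue, showed 0.936 in dark wt against 0.453 in wt WLc, and BCS1 (AT3G50930, chr3:18930100-18930200, coding exon) 1.11 and 0.422. ACT12 (AT3G46520, chr3:17129650-17129750, coding exon) had values from 0.0238 in wt D to 0.389 in pifq WLc, in an actin family whose members are alike in sequence.

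Several lists of genes known from light responses had no short peak. The lists were looked up by symbol, and of all genes with a peak 4.39% had a short one. At that share, few genes with a short peak or none would fall in a list of this size. An absence from a single list is therefore near that share and is not a result about its genes. Of the genes with a peak, no short peak was found in 24 light harvesting genes, 32 genes of the photosystems and electron transport, 24 of tetrapyrrole synthesis, 42 of photoreceptors and light signalling, 10 of the PIF family, 24 of the circadian clock, 17 for ribosomal proteins or 16 shade and growth transcription factors, nor in the 12 genes the study followed in detail. By name of the product, 3 genes for ribosomal proteins had a short peak (0.389% of genes, against 2.28% among longer peaks). Root and seed marker genes had none (6 and 3 with a peak), and of the 3 stomatal lineage genes with a peak only TMM (AT1G80080, chr1:30128322-30128454, coding exon), a receptor-like protein of stomatal patterning, had one. The labels say seedlings, and these lists hold too few short peaks to check a tissue.

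Each of the other lists had 1 or 2 members. In the Calvin-Benson list (19 genes with a peak) the transketolase gene AT3G60750 (chr3:22456300-22456500, coding exon) had a short peak 2732 bp from the TSS, with 0.236 in wt D, 0.652 in wt R1h, 0.894 in wt WLc, 0.584 in pifq D, 1.00 in pifq R1h and 0.833 in pifq WLc. Its 2151 bp main peak ranged from 0.634 to 0.850. GAPC2 (AT1G13440, chr1:4608926-4609061, coding exon), a cytosolic glyceraldehyde-3-phosphate dehydrogenase often used as a reference gene, showed the same with 0.191 in wt D and 0.613 in wt WLc in the short peak and 0.671 and 0.861 in the main one. ACT7 (AT5G09810, chr5:3053577-3053682, coding exon), an actin expressed in growing tissue, went the other way, with 1.01 in wt D, 0.547 in wt WLc and 0.393 in pifq D, while its main peak lay between 0.813 and 0.945. So in these 3 genes the short peak on the 3′ side differed more than the peak at the start of the gene.

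The remaining list members were TMM, with 0.499 in wt D, 0.924 in wt R1h and 1.12 in wt WLc, SAUR9 (AT4G36110, chr4:17090126-17090327, coding exon), of the auxin-responsive SAUR family, with 0.956 in wt D against 0.476 in wt WLc, VSP2 (AT5G24770, chr5:8501532-8501777, coding exon), a jasmonate-responsive storage protein gene, with 0.523 in wt R1h and no more than 0.328 elsewhere, GA2 (AT1G79460, chr1:29890547-29890770, intron), of gibberellin synthesis, between 0.634 and 0.792, and HAF01 (AT1G32750, chr1:11856461-11856647, intron), a TAF1-type acetyltransferase gene, between 0.512 and 0.687. GA2 and HAF01 were beyond the 1.5-fold limit in none of the comparisons. The HAF01 interval lay 32 bp upstream of the TSS of the non-coding gene AT1G06613. Genes whose product name holds a word for a transcription factor, DNA binding or zinc finger made up 7.26% of the genes of short peaks and 5.83% of those of longer peaks. Of their 61 short peaks, 20 were higher and 3 lower in pifq WLc than in pifq D, against 21.4% and 4.94% of all short peaks and 3.76% and 1.28% of all entries. ERF71 (AT2G47520, chr2:19502996-19503100, coding exon), of the ethylene response factors, was one of them with 0.628 in pifq D and 1.11 in pifq WLc.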

How the data were processed

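H3K9ac ChIP-sequencing was described for 18 libraries (3 in each of 6 groups) and 6 inputs. The authors mapped reads by Bowtie2, used BayesPeak to find peaks and DiffBind to quantify them, and each peak was entered under the closest TSS, as their methods and processing notes say. The methods name TAIR9 and the notes TAIR10, which have the same chromosome sequences. The deposited signal, 1 value per peak and group, is per bp of peak and had been combined over replicates by the authors in a way not given in the sources used here. Column totals of signal times length lay within 2.08% of each other. The planned test on library values could not be run on pooled values, so only descriptions were made.

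Peak starts were read as counted from 0, which the sources do not state, because the start plus 1 then falls on a multiple of 50 in 100% of the 101 bp entries. Coordinates are printed counted from 1. Genes, exons and sequence were taken from NCBI TAIR10.1, in which 804 of the 809 short entries had their gene. Exons are those of the first transcript. Changes were log2 ratios after a pseudocount of 0.0717, which is 0.1 times the median (0.717) of all values, and understate the change of low peaks. Beyond the limit means at least 1.5-fold apart. The log2 ratio and the 1.5-fold call were tested on simulated data, with changes placed only in peaks above the median signal. The other steps were not tested in this way. Python 3.11.15 was used with pandas 2.3.3, NumPy 2.4.6 and Matplotlib 3.10.9.

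The members, the 21 gene lists and the other choices were made with earlier results of these data known. Named are the 8 short peaks with the highest mean signal, the 6 (against wt D) or 3 (against pifq D, and pifq WLc against wt WLc) with the largest difference in each direction whose higher group reached the median of the short peaks, up to 4 per gene list by largest difference, the shortest, and those at the floor in most groups. Sequences printed are a choice among the first of each and among the G-box holders of those named, without any that overlap a UTR. Values of P450, MYB, ERF and other genes outside these rules, and those of the pifq WLc against wt WLc comparison, were chosen after they were seen. Alternatives were other pseudocounts, scalings, limits, length limits, 1 row per interval, and subsets of members.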

Additional observations from a re-analysis of the deposited data

How the results depend on the processing

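No paired analysis was possible because the deposited values are pooled over the replicates, and for the same reason no replicate could be left out. Of 171 values recomputed under another setting (23 results, with the comparison of pifq WLc and wt WLc added after the values were seen), 139 lay within 1.5 times the reported value and 32 moved further. These values cannot be negative. The balance of higher and lower short peaks turned under quantile normalization in wt WLc and in pifq D against wt D, with a limit of 200 bp in pifq D against wt D and in pifq R1h against pifq D, and with the larger pseudocounts in pifq D against wt D (70 higher and 71 lower, and 7 and 9). The shares of short peaks beyond the limit depend most on the pseudocount and on the limit. In the order of the 6 comparisons above, from wt R1h against wt D to pifq WLc against wt WLc, the shares were 23.0%, 45.9%, 37.3%, 12.9%, 26.3% and 14.6% as reported. With a pseudocount of 0.5 times the median they were 7.79%, 26.0%, 17.4%, 2.35%, 9.77% and 1.73%, with a pseudocount of 1 they were 0.618%, 6.30%, 1.98%, 0%, 0.989% and 0%, and with a 2-fold limit 9.15%, 23.1%, 16.8%, 2.72%, 9.52% and 1.61%. Without a pseudocount, and without peaks at the floor, pifq R1h against pifq D gave 19.5%. The shares under other pseudocounts, scalings and limits were computed for short peaks only. Whether they exceed those of longer peaks or of all entries at the same setting was not tested. A large pseudocount shrinks the ratios of low values by construction. Signal times length, in place of signal per bp, gave medians of 90.3, 98.3, 95.8, 86.7, 94.5 and 104.9 in wt D, R1h and WLc and pifq D, R1h and WLc, and ratios to longer peaks of 0.146, 0.159, 0.153, 0.140, 0.152 and 0.168. Measured from the nearest TSS of any gene, the median distance was 359 bp in place of 598.75 bp. For longer peaks it was 413 bp in place of 448.5 bp, so the order of the 2 signed medians turned. Distances upstream of a TSS count as negative and lower these medians. The turn therefore does not show that short peaks lay closer to a TSS. The upper quartiles were 943 bp for short and 551.5 bp for longer peaks. Depth is unknown, so the counting error of a short peak could not be given.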

Other observations

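Short peaks made up between 3.71% (chromosome 2) and 4.82% (chromosome 4) of the entries of a chromosome. Among transcription factor genes outside the naming rules, WRKY18, known from pathogen responses, had 0.277 in wt D, 0.401 in wt R1h, 0.557 in wt WLc, 0.567 in pifq D, 0.427 in pifq R1h and 0.657 in pifq WLc, lowest in wt D. MYB60, a regulator of guard cells, lay between 0.509 and 0.800, and MYB13 between 0.523 and 0.837. VIM1 and VIM4, of the family that maintains DNA methylation, differed in opposite directions, with 0.298 and 0.813 in wt D and 0.446 and 0.343 in wt WLc, in genes alike in sequence. These values were chosen after they were seen and carry no test.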
